A study of Homo sapiens with 6 samples.

Results

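The mitochondrial respiratory chain passes electrons from NADH and succinate to oxygen and stores the energy as a proton gradient, which ATP synthase uses to make ATP. Complex I oxidises NADH, complex II oxidises succinate, complex III passes electrons from ubiquinol to cytochrome c, complex IV passes them to oxygen, and complex V is ATP synthase. All complexes except complex II are built from subunits of 2 genomes, since a small set is encoded by mitochondrial DNA and the rest by nuclear genes. This account covers the nuclear-encoded subunits. They were taken by name from the protein-coding genes of the deposited count table: NDUF genes other than the NDUFAF assembly factors, SDHA to SDHD, UQCR genes, CYC1, nuclear COX4 to COX8 genes and ATP5 genes, with at least 60 reads summed over the 6 libraries. They were 83 of the 29710 genes in that table, with 37 in complex I, 4 in complex II, 10 in complex III, 13 in complex IV and 19 in complex V. Another 6 genes with a matching name fell below the minimum: NDUFA7 with 29 reads, COX6B2 with 14, COX8C with 6, NDUFA4L2 with 3, COX7A1 with 2 and ATP5MGL with 1.

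The cells were MDA-MB-231, a human line of triple-negative breast cancer. The study asked which transcripts differ when the kinase SRPK2, which phosphorylates splicing factors rich in serine and arginine, is raised. The 2 groups were cells that overexpress SRPK2 with a FLAG tag, in 3 biological replicates, and cells of the same line with an empty vector, also in 3. Total RNA was treated with DNase and made into strand-specific libraries, which were sequenced in paired-end mode. Whether the cells were a pool or 1 clone is not stated in the labels.

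Reads assigned to genes numbered 31140537, 35262735 and 36908878 in the SRPK2 libraries, and 35698295, 33590410 and 36225361 in the empty vector libraries. SRPK2 mRNA was at 213, 248 and 294 CPM (counts scaled to library size with TMM factors) with SRPK2, against 37.8, 36.8 and 41.1 CPM with the empty vector, a log2 fold change of 2.71 ± 0.10 (SE, Benjamini-Hochberg adjusted p = 2.94e-08 by edgeR's quasi-likelihood test). The line's mesenchymal markers VIM, CD44, EGFR, AXL and MSN were listed at 18.7 to 637 FPKM (counts scaled to library size and to gene length) in every library. Of 5 markers that should be low (ESR1, PGR, CDH1, EPCAM, ERBB2), 4 were listed, at 0 to 5.84 FPKM. Of 13 markers of leukocytes, endothelium, fibroblasts, kidney or neurons, 10 were listed, at 0 to 3.39 FPKM, and they summed to 7.56 to 7.85 FPKM in SRPK2 libraries and 7.13 to 7.35 FPKM in empty vector libraries.

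As a group, the nuclear-encoded subunits lay slightly lower with SRPK2, and no single member passed the test. Their median log2 fold change was -0.21, or -13.4%, with quartiles of -0.25 and -0.16, against a median of 0.00 over the 16515 genes tested. The log2 fold change was below 0 for 82 of the 83 members, against 48.8% of all genes tested, and for 80 when libraries were scaled by size alone, which moved the median of all genes to 0.04. Short transcripts had a larger share below 0 than all genes did: other protein-coding genes with a principal transcript of 500 to 750, 750 to 1000 and 1000 to 1500 bases had 77.7%, 79.7% and 81.8% below 0, and the 20, 17 and 15 members of those lengths were all below 0. Under 500, from 1500 to 2500 and from 2500 bases, the shares of other genes were 55.4%, 65.6% and 34.6%. In those bins 3 of 3, 13 of 13 and 14 of 15 members were below 0. With adjustment over all genes tested, 0 members were called in either direction, against 0.0727% of all genes called lower and 0.381% called higher, and the members' adjusted p ran from 0.155 (ATP5F1D) to 0.95 (NDUFS1). DESeq2 likewise called 0 members, with a lowest adjusted p of 0.0857, where it called 0.303% of all genes lower. At an unadjusted edgeR p under 0.05 there were 32 members, all with a negative log2 fold change, against 8.1% of all genes with a negative one and 17.2% in either direction. The 3 SRPK2 values lay below all 3 empty vector values in 6 members (NDUFB10, NDUFA9, NDUFV3, NDUFV1, UQCRHL and ATP5F1D), or 7.23% of them, close to the 8.69% of all genes tested, and above them in 0 members, against 11.5% of all genes. Since these are bulk libraries, fewer cells expressing a transcript and less of it per cell cannot be told apart.

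The count of 0 changed when the library of SRPK2 replicate 2 or the filter for low counts was left out. It also changed when the replicate number was added to the fit as a block. That fit is given with the dependence on processing, since replicate numbers were not taken as pairs. Without that library, 59 of the 83 members fell at an edgeR adjusted p under 0.05, or 71.1%, against 5.08% of all genes, and the members' median log2 fold change was -0.32. The median was -0.13 without SRPK2 replicate 3 and -0.12 without empty vector replicate 2, with 0 members called in both cases, where 0.0239% and 0.0714% of all genes were called lower. When genes with few reads were kept in the fit, 50 members fell, or 60.2%, against 2.04% of all genes, with the median at -0.21 as before.

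**Figure D1:**
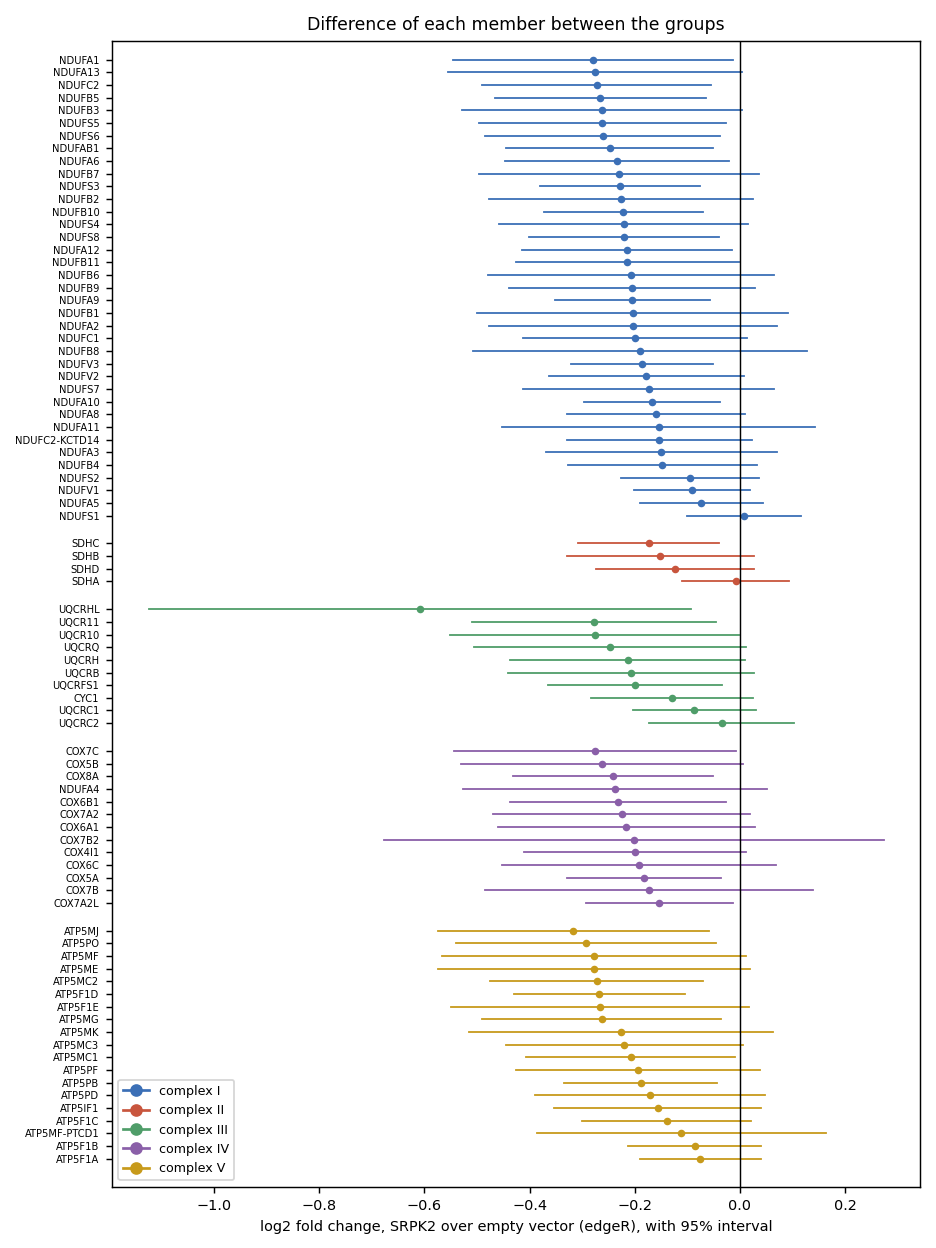
Log2 fold change of each of the 83 subunit genes, SRPK2 over empty vector, from edgeR on 3 libraries each, with points for estimates, bars for 95% intervals and colours for the complexes. Points lie below 0 for 82 members, and the interval lies wholly below 0 for 32, with no adjustment for the number of genes.

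Taken library by library, the members' levels varied together. The members' median deviation from each gene's mean log2 CPM was -0.15, 0.11 and -0.28 in SRPK2 replicates 1, 2 and 3, against 0.07, 0.28 and -0.02 in empty vector replicates 1, 2 and 3. The spread of these medians within the groups was 0.18 (SD), and SRPK2 replicate 2 lay above the empty vector replicates 1 and 3. Empty vector replicate 2 was the highest of the 6 libraries for 79 members, or 95.2%, against 23.9% of all genes tested, and SRPK2 replicate 3 was the lowest for 76, or 91.6%, against 24.4%. Both SRPK2 replicates 1 and 3 lay below every empty vector library for 74 members, or 89.2%, against 20.8% of all genes. SRPK2 replicate 2 was the highest SRPK2 library for 80 members, against 5648 of the 16515 genes tested. The members took 0.948%, 1.11% and 0.912% of all reads in SRPK2 libraries, a mean of 0.988% ± 0.102 (SD, n = 3), and 1.06%, 1.195% and 1.03% in empty vector libraries, a mean of 1.10% ± 0.0866 (SD, n = 3).

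**Figure D2:**
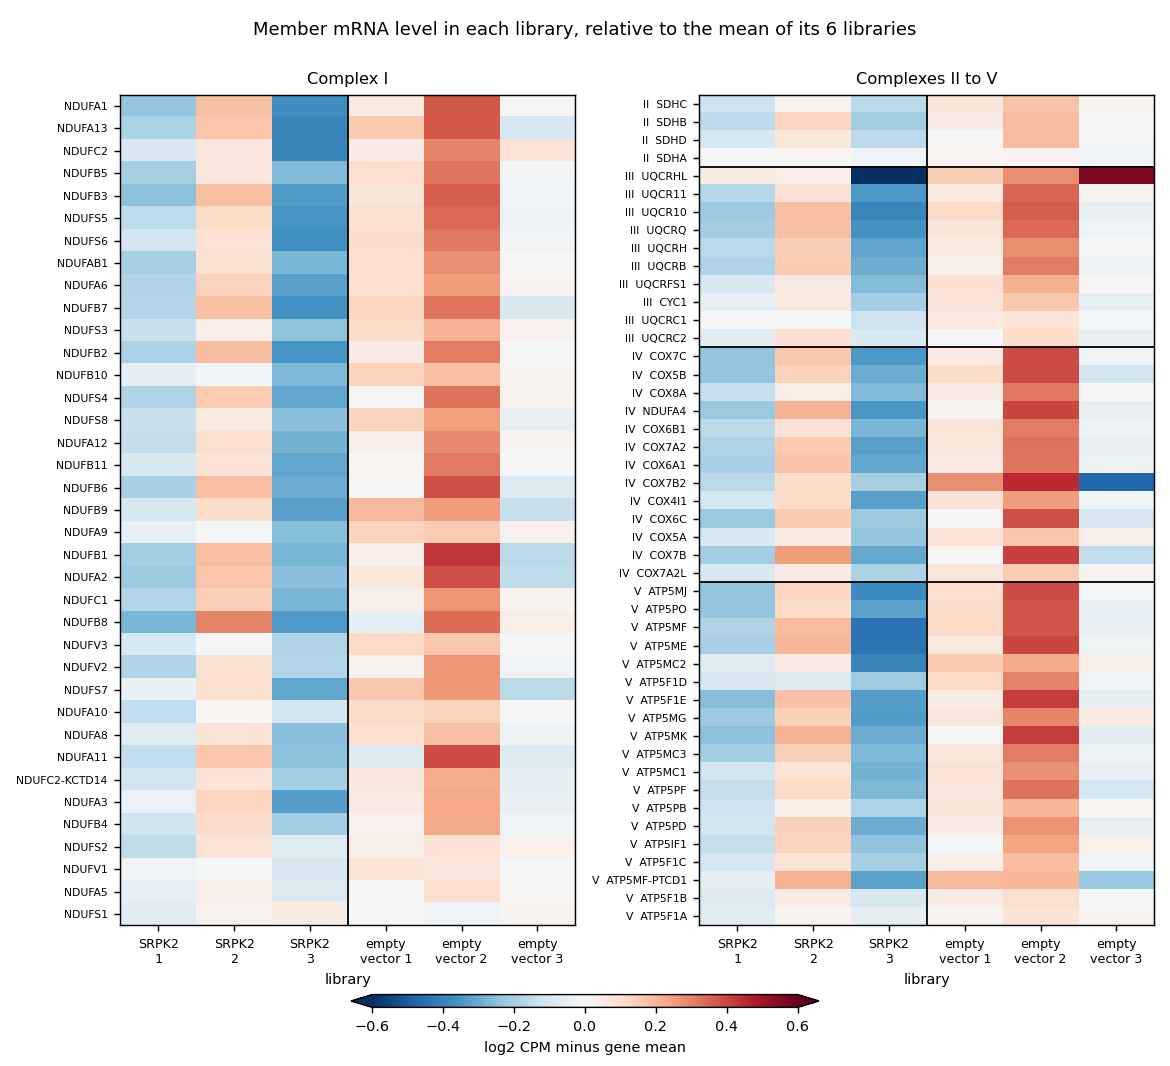
Log2 CPM of each subunit gene in each library, minus the gene's mean over the 6 libraries, with SRPK2 libraries left of the line and empty vector libraries right of it, and colours beyond 0.6 in either direction at the end of the scale. Most rows share an order of libraries, low in SRPK2 replicate 3 and high in empty vector replicate 2, while SDHA, NDUFS1 and the other rows near 0 change little in colour.

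The 5 complexes had similar medians. The median log2 fold change was -0.21 in complex I, -0.14 in complex II, -0.21 in complex III, -0.22 in complex IV and -0.22 in complex V, with SDs over their genes of 0.04 (complex IV) to 0.16 (complex III). Complex II had the smallest spread between libraries, with medians of -0.11, 0.04 and -0.16 in SRPK2 replicates 1 to 3 and 0.03, 0.18 and -0.01 in empty vector replicates 1 to 3. Complex IV had the widest, with -0.18, 0.14 and -0.30 in SRPK2 libraries and 0.07, 0.33 and -0.03 in empty vector libraries. The differences between complexes were smaller than the spread of a complex between libraries of a group, which was 0.10 (complex II) to 0.21 (complex IV) as an SD. The complexes shifted together from library to library, so this spread is not the error of a difference between complexes. Such differences were not tested. Without SRPK2 replicate 2, where 5.08% of all genes were called lower, 26 of 37 members of complex I fell and 2 of 4 of complex II. So did 6 of 10 members of complex III, 10 of 13 of complex IV and 15 of 19 of complex V.

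**Figure D3:**
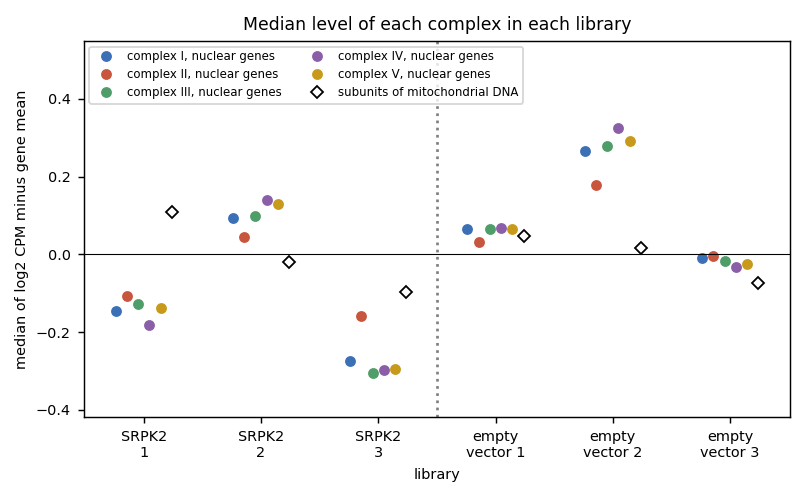
Median over the genes of each complex of log2 CPM minus the gene's mean over 6 libraries, for each SRPK2 library and each empty vector library, with the 13 subunits of mitochondrial DNA as open diamonds. The nuclear medians of the 5 complexes keep close together in every library, from -0.31 to -0.11 in SRPK2 replicates 1 and 3 and from 0.18 to 0.33 in empty vector replicate 2.

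The catalytic core of complex I, which holds its flavin and its iron-sulfur clusters, had 7 nuclear members, with a median log2 fold change of -0.17. NDUFS1, the largest core subunit and a carrier of iron-sulfur clusters, was the only member above 0 in this fit, at 94.4, 101 and 102 CPM with SRPK2, against 98.7, 96.9 and 99.7 CPM with the empty vector, a log2 fold change of 0.01 (edgeR, adjusted p = 0.950, SE 0.05). Its groups overlapped, with the top value in SRPK2 replicate 3, and its sign turned when libraries were corrected for gene length, which gave -0.06. NDUFV1, the subunit that binds NADH and the flavin, stood at 129, 129.8 and 122 CPM with SRPK2, against 138, 137 and 130.2 CPM with the empty vector. Its groups did not overlap, yet the difference was small, at -0.09 (edgeR, adjusted p = 0.362, SE 0.05). For NDUFS3, a core subunit near the quinone end of the peripheral arm, the log2 fold change was -0.23 (edgeR, adjusted p = 0.176, SE 0.07).

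The 29 accessory subunits of complex I, which surround the core and take part in its assembly and stability, had a median log2 fold change of -0.21 and ranged from -0.28 to -0.07. Per unit of length, NDUFS5 was the most abundant complex I transcript in both measures used here, with 321 ± 46.5 FPKM with SRPK2 and 375 ± 44.2 FPKM with the empty vector (SD, n = 3 each). NDUFS5 (ENSG00000168653.11, chromosome 1, 39026318 to 39034636, plus strand) encodes a small subunit on the side of the intermembrane space, and it was measured at 187, 224 and 163 CPM with SRPK2, against 222, 264 and 204 CPM with the empty vector. Its lowest libraries were SRPK2 replicates 3 and 1, and SRPK2 replicate 2 lay above empty vector replicates 1 and 3. The log2 fold change was -0.26 (edgeR, adjusted p = 0.249, SE 0.11), and -0.39 without SRPK2 replicate 2. It ran from -0.392 to -0.154 when each of the 6 libraries was left out in turn.

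NDUFA1 and NDUFA13 had the lowest log2 fold changes of complex I. NDUFA1, a small subunit of the membrane arm, was at 92.2, 123 and 83.9 CPM with SRPK2, against 113, 140.4 and 109 CPM with the empty vector. The log2 fold change of NDUFA1 was -0.28 (edgeR, adjusted p = 0.272, SE 0.12), and -0.46 without SRPK2 replicate 2 (adjusted p = 0.014). Over the fits that left out 1 library, the value for NDUFA1 ran from -0.456 to -0.161. NDUFA13, also known as GRIM19, was at 84.9, 109 and 73.6 CPM with SRPK2, against 108, 125 and 90.4 CPM with the empty vector. In both genes SRPK2 replicates 1 and 3 were the lowest libraries and SRPK2 replicate 2 lay inside the empty vector range. NDUFA13 had a log2 fold change of -0.28 (edgeR, adjusted p = 0.296, SE 0.13). NDUFA8, a subunit facing the intermembrane space like NDUFS5, was among the 3 highest in FPKM within complex I. It was at 111, 123 and 98.1 CPM with SRPK2, against 125, 132 and 114 CPM with the empty vector, a log2 fold change of -0.16 (edgeR, adjusted p = 0.314, SE 0.08).

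Complex II, the succinate dehydrogenase, links the tricarboxylic acid cycle to the chain and is made by nuclear genes alone. SDHA, the flavoprotein that oxidises succinate, differed least in the complex, at 209, 211 and 206 CPM with SRPK2, against 211, 211 and 207 CPM with the empty vector. All 6 values of SDHA lay within a narrow band, and the log2 fold change was -0.01 (edgeR, adjusted p = 0.940, SE 0.05), with a 95% interval from -0.11 to 0.09 and a value of 0.03 with scaling by library size alone. SDHB, the iron-sulfur subunit, was at 91.3, 112 and 88.1 CPM with SRPK2, against 106, 116 and 102 CPM with the empty vector. Here SRPK2 replicates 1 and 3 were below all empty vector values and replicate 2 lay above 2 of the 3, with a log2 fold change of -0.15 (edgeR, adjusted p = 0.353, SE 0.08). SDHC and SDHD anchor the enzyme in the membrane and form its quinone site. SDHC was at 94.5, 104 and 91.9 CPM with SRPK2, against 108, 116 and 104 CPM with the empty vector, with a log2 fold change of -0.17 (edgeR, adjusted p = 0.210, SE 0.06). SDHD was at 141, 158 and 135 CPM with SRPK2, against 151, 172 and 149.8 CPM with the empty vector, with a log2 fold change of -0.12 (edgeR, adjusted p = 0.369, SE 0.07). In both anchors SRPK2 replicates 1 and 3 lay below all empty vector values and SRPK2 replicate 2 lay among or above the lower ones. The order of levels within complex II depended on the length used. By the deposited FPKM, SDHC was at 46.8 ± 2.60 FPKM with SRPK2 and 51.5 ± 2.02 FPKM with the empty vector, and SDHD at 47.6 ± 3.09 FPKM with SRPK2 and 50.6 ± 3.35 FPKM with the empty vector (SD, n = 3 each), so these 2 did not differ beyond their spread. Per kilobase of the principal transcript in GENCODE 29 SDHD stood first at 105 CPM and SDHC last at 7.60 CPM, since that transcript of SDHC is 13566 bases long.

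In complex III, the core proteins UQCRC1 and UQCRC2, which carry no redox centre, had the smallest differences, with a median log2 fold change of -0.06. UQCRC2 was at 85.7, 96.5 and 84.4 CPM with SRPK2, against 89.3, 96.9 and 87.0 CPM with the empty vector. Its groups overlapped, the log2 fold change was -0.04 (edgeR, adjusted p = 0.797, SE 0.06), and scaling by library size alone gave 0.00. CYC1, which is cytochrome c1, was at 146, 156 and 130.2 CPM with SRPK2, against 158, 168 and 146 CPM with the empty vector. SRPK2 replicate 1 of CYC1 equalled the lowest empty vector library, and the log2 fold change was -0.13 (edgeR, adjusted p = 0.357, SE 0.07). The 5 small subunits had a median of -0.25, the lowest of the complex apart from a retrocopy. Among them, UQCR10 was at 76.7, 101 and 68.2 CPM with SRPK2, against 96.9, 115 and 86.4 CPM with the empty vector, with a log2 fold change of -0.28 (edgeR, adjusted p = 0.289, SE 0.13). UQCR11 was at 24.04, 28.8 and 21.3 CPM with SRPK2, against 28.1, 34.4 and 27.4 CPM with the empty vector, with a log2 fold change of -0.28 (edgeR, adjusted p = 0.228, SE 0.11). In both genes SRPK2 replicate 2 was the only SRPK2 library inside the empty vector range.

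The lowest log2 fold change of all members belonged to UQCRHL, an intronless copy of UQCRH, the hinge protein that supports the contact of cytochrome c1 with cytochrome c. The coding sequences of both genes were 273 bases long and differed at 4 bases, an identity of 98.5%, so reads of UQCRH may be counted for its copy. The stretch that holds all 4 differences, from base 143 to base 248 of the coding sequence in GENCODE 29 on GRCh38, is shown to let the near identity be seen, with the differing bases in capitals.
UQCRH, chromosome 1, 46303631 to 46316776, plus strand: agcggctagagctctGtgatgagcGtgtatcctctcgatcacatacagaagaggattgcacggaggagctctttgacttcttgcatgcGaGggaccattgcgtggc
UQCRHL, chromosome 1, 15807169 to 15809348, minus strand: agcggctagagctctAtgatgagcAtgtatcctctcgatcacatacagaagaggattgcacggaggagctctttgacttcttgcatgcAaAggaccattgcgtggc

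UQCRHL was at 2.33, 2.32 and 1.07 CPM with SRPK2, against 2.5, 2.74 and 3.33 CPM with the empty vector, so SRPK2 replicate 3 stood apart from the other 5 libraries, and its groups did not overlap. The log2 fold change of UQCRHL was -0.61 (edgeR, adjusted p = 0.233, SE 0.24), with a 95% interval from -1.12 to -0.09, and -0.305 without SRPK2 replicate 3. UQCRH itself was far more abundant, at 183, 227 and 164 CPM with SRPK2, against 212, 248 and 205 CPM with the empty vector. Its groups overlapped, and its log2 fold change was -0.21 (edgeR, adjusted p = 0.308, SE 0.10), and -0.36 without SRPK2 replicate 2. Leaving out 1 library at a time gave -0.355 to -0.116 for UQCRH. Per unit of length UQCRH was the most abundant transcript of complex III in both measures, with 131 ± 20.1 FPKM with SRPK2 and 148 ± 13.3 FPKM with the empty vector (SD, n = 3 each).

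Complex IV, cytochrome c oxidase, has its copper and heme centres in subunits made from mitochondrial DNA, and its nuclear genes supply small subunits that surround that core. The 11 small subunits expressed as the common isoform had a median log2 fold change of -0.22 and a narrow range, from -0.28 to -0.17. COX4I1, the common isoform of the largest nuclear-encoded subunit, was at 213, 248 and 182 CPM with SRPK2, against 242, 272 and 224 CPM with the empty vector, a log2 fold change of -0.20 (edgeR, adjusted p = 0.312, SE 0.10). COX7C, with the lowest log2 fold change of the complex, was at 215, 283 and 199.7 CPM with SRPK2, against 262, 333 and 249.8 CPM with the empty vector, a log2 fold change of -0.28 (edgeR, adjusted p = 0.279, SE 0.12). COX5B was at 78.3, 102 and 74.9 CPM with SRPK2, against 99.3, 121 and 85.1 CPM with the empty vector, a log2 fold change of -0.26 (edgeR, adjusted p = 0.297, SE 0.12). In these 3 genes SRPK2 replicates 1 and 3 lay below every empty vector library, and SRPK2 replicate 2 lay between empty vector libraries.

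COX8A and COX6A1 led complex IV per unit of length, in opposite order by FPKM and by CPM per kilobase of the principal transcript. COX8A (ENSG00000176340.4, chromosome 11, 63974607 to 63976543, plus strand) had 248 ± 22.0 FPKM with SRPK2 and 286 ± 30.7 FPKM with the empty vector (SD, n = 3 each), and COX6A1 had 140.2 ± 23.1 FPKM with SRPK2 and 159 ± 18.7 FPKM with the empty vector (SD, n = 3 each). In CPM, COX8A was at 132, 148 and 120.5 CPM with SRPK2, against 149, 180.1 and 145 CPM with the empty vector, and its log2 fold change was -0.24 (edgeR, adjusted p = 0.219, SE 0.09). COX6A1, the isoform of non-muscle tissue, was at 191, 246 and 177 CPM with SRPK2, against 225, 274 and 214 CPM with the empty vector, and its log2 fold change was -0.22 (edgeR, adjusted p = 0.339, SE 0.11). COX6B1, which sits on the intermembrane side, was at 157, 186 and 145 CPM with SRPK2, against 184, 217 and 172 CPM with the empty vector, with a log2 fold change of -0.23 (edgeR, adjusted p = 0.245, SE 0.09). SRPK2 replicate 2 kept the groups overlapping in each of these 3 genes.

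COX7A2, the common isoform of its subunit, was at 155, 196 and 141 CPM with SRPK2, against 185, 221 and 170.1 CPM with the empty vector, with a log2 fold change of -0.22 (edgeR, adjusted p = 0.324, SE 0.11). COX7A2L, a related protein that joins complexes III and IV in supercomplexes, was at 98.5, 109 and 92.2 CPM with SRPK2, against 110.1, 117 and 106 CPM with the empty vector, with a log2 fold change of -0.15 (edgeR, adjusted p = 0.252, SE 0.06). NDUFA4, named for complex I but now placed in complex IV, was at 153, 206 and 140.0 CPM with SRPK2, against 180.2, 235 and 173 CPM with the empty vector, with a log2 fold change of -0.24 (edgeR, adjusted p = 0.367, SE 0.13). All 3 had SRPK2 replicates 1 and 3 as their lowest libraries. COX7B was at 109.7, 151 and 103 CPM with SRPK2, against 127, 168 and 114 CPM with the empty vector, and its log2 fold change of -0.17 (edgeR, adjusted p = 0.545, SE 0.14) was 0.00 without empty vector replicate 2. Its paralog COX7B2 was scarce, at 1.66, 2.00 and 1.62 CPM with SRPK2, against 2.25, 2.53 and 1.34 CPM with the empty vector, with the lowest value in an empty vector library and a log2 fold change of -0.20 (edgeR, adjusted p = 0.652, SE 0.22). The 2 coding sequences were 77.8% identical. The isoforms COX6B2, COX7A1, COX8C and NDUFA4L2 had 2 to 14 reads in all and were not part of the set.

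In complex V the F1 head and central stalk, which make ATP, had a median log2 fold change of -0.14 over 5 members. ATP5F1B and ATP5F1A, the beta and alpha subunits, were the most abundant members in CPM and had the smallest differences of the complex. ATP5F1B (ENSG00000110955.9, chromosome 12, 56638175 to 56646068, minus strand) was at 623, 683 and 616 CPM with SRPK2, against 679.7, 704 and 657 CPM with the empty vector, a log2 fold change of -0.09 (edgeR, adjusted p = 0.453, SE 0.06). ATP5F1A was at 487, 518 and 492 CPM with SRPK2, against 518, 541 and 518 CPM with the empty vector, a log2 fold change of -0.08 (edgeR, adjusted p = 0.469, SE 0.05). Both overlapped between groups. ATP5F1C, the gamma subunit, was at 246, 279 and 229.9 CPM with SRPK2, against 271, 300 and 261 CPM with the empty vector, with a log2 fold change of -0.14 (edgeR, adjusted p = 0.348, SE 0.07). ATP5F1D, the delta subunit, had the lowest adjusted p of all members and groups that did not overlap, at 42.4, 42.8 and 39.1 CPM with SRPK2, against 49.3, 55.7 and 44.7 CPM with the empty vector, a log2 fold change of -0.27 (edgeR, adjusted p = 0.155, SE 0.08).

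The c ring turns in the membrane as protons pass. Its subunit c is encoded by 3 genes, ATP5MC1, ATP5MC2 and ATP5MC3, that give the same mature protein with different import peptides, and their coding sequences were 67.2% to 70.4% identical. ATP5MC3, the most abundant of them in CPM, was at 173, 221 and 166 CPM with SRPK2, against 209, 247 and 196 CPM with the empty vector, with a log2 fold change of -0.22 (edgeR, adjusted p = 0.297, SE 0.10). ATP5MC1 was at 100, 114 and 88.7 CPM with SRPK2, against 114, 131 and 105 CPM with the empty vector, with a log2 fold change of -0.21 (edgeR, adjusted p = 0.273, SE 0.09). ATP5MC2 was at 106, 115 and 83.9 CPM with SRPK2, against 124, 129.9 and 114 CPM with the empty vector, with a log2 fold change of -0.27 (edgeR, adjusted p = 0.200, SE 0.09). The 3 genes thus had log2 fold changes within 1 SE of each other, and in each SRPK2 replicates 1 and 3 were the lowest libraries.

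The 5 small membrane subunits of complex V had a median log2 fold change of -0.28, with ATP5MJ lowest. ATP5MJ was at 80.0, 103 and 72.3 CPM with SRPK2, against 101, 123 and 93.6 CPM with the empty vector, a log2 fold change of -0.32 (edgeR, adjusted p = 0.226, SE 0.12), and -0.48 without SRPK2 replicate 2 (adjusted p = 0.0138). ATP5MK, second in FPKM within complex V, was at 150.3, 205 and 145 CPM with SRPK2, against 178, 237 and 170.1 CPM with the empty vector, a log2 fold change of -0.23 (edgeR, adjusted p = 0.388, SE 0.13). Both ranges overlapped through SRPK2 replicate 2. The 4 genes of the peripheral stalk, which holds the head still, had a median of -0.19. ATP5PO, which joins the stalk to the head, was at 28.6, 36.2 and 26.9 CPM with SRPK2, against 36.4, 43.5 and 32.4 CPM with the empty vector, a log2 fold change of -0.29 (edgeR, adjusted p = 0.234, SE 0.11). ATP5IF1, the inhibitor that stops ATP synthase from running backwards, was at 122, 148 and 114 CPM with SRPK2, against 134, 159 and 137 CPM with the empty vector, a log2 fold change of -0.16 (edgeR, adjusted p = 0.379, SE 0.09).

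Members with short coding sequences had lower log2 fold changes than those with long ones, and the same held for other protein-coding genes. This division by coding length was chosen after the values were seen. The 22 members with coding sequences under 300 bases had a median log2 fold change of -0.25, against -0.12 for 311 other tested protein-coding genes of that length. From 300 to 600 bases it was -0.21 in 40 members, against -0.11 in 1417 other genes, and from 600 to 1000 bases -0.18 in 10 members, against -0.06 in 2473. The 11 members of 1000 bases or more, among them SDHA, NDUFS1, NDUFV1, UQCRC1, UQCRC2, ATP5F1A and ATP5F1B, had a median of -0.09, against 0.04 for 8911 other genes. Across the 83 members Pearson's r of the log2 fold change with log2 coding length was 0.63, and across 13195 tested protein-coding genes 0.34, where genes of 1 library set share depth and composition and are not independent replicates.

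By the length of the principal transcript, which includes untranslated parts, the members had a median of 1078 bases, against 3118 bases for all tested protein-coding genes. The correlation with the log2 fold change was then 0.29 across the members and 0.30 across 13204 protein-coding genes. Members of 500 to 750 bases had a median log2 fold change of -0.21, against -0.17 for other genes of that length, and those of 2500 bases or more -0.19, against 0.04. When each library was corrected for length with a loess curve, the members' median was -0.18 with the length implied by the deposited values and -0.16 with the principal transcript, and 0 members were called with either, where 0.171% and 0.257% of all genes were called lower. Without SRPK2 replicate 2, 58 members fell with the first correction, against 5.99% of all genes, and 52 with the second, against 5.19%, both chosen after the values were seen. The part of transcript length in the members' difference was not tested beyond these corrections.

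**Figure D4:**
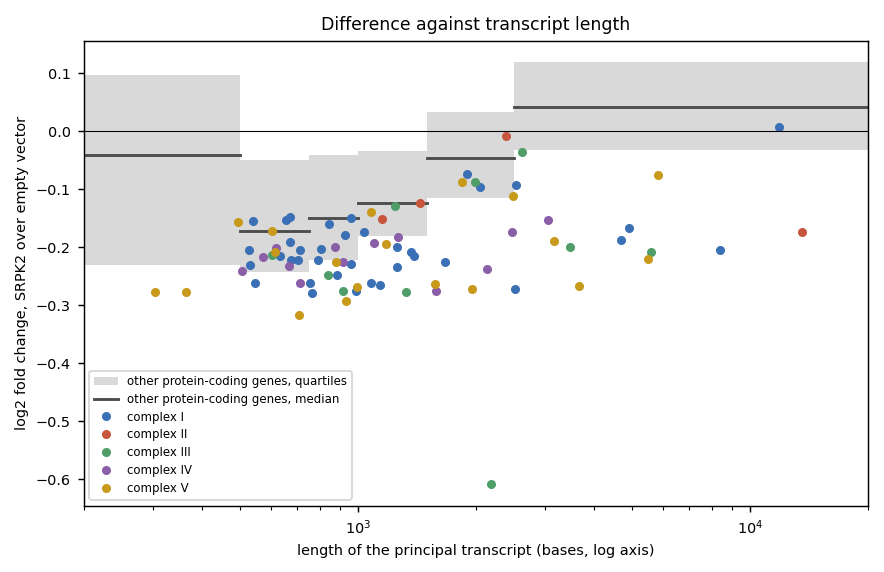
Log2 fold change (SRPK2 over empty vector) of each subunit gene against the length of its principal transcript in bases on a log axis, with points coloured by complex, and the median (line) and quartiles (grey) of other tested protein-coding genes in bins of length. The members' median lies under that of other genes in every bin, with -0.21 against -0.17 at 500 to 750 bases and -0.19 against 0.04 from 2500 bases.

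Promoters in RefSeq (GRCh38.p14, 250 bases before to 50 after the start) were found for 67 of the 83 members. They were searched on both strands for motifs of 3 regulators linked to respiratory genes. These were the palindrome of NRF1, whose letters are the capitals in the sequences printed here, CCGGAAG for ETS factors such as GABPA, and AAGATGGCG for YY1. The NRF1 letters were in 4 member promoters, or 5.97%, against 2.59% of tested protein-coding genes and 1.52% of all promoters. The ETS letters were in 21, or 31.3%, against 22.1% and 12.2%. The YY1 letters were in 8, or 11.9%, against 4.59% and 2.14%. The 4 NRF1 matches are shown with 20 bases on each side, 5′ to 3′ along the gene, with the motif in capitals, to place it in members of complexes I, II and V.
NDUFB4, chr3:120596157-120596206, plus strand: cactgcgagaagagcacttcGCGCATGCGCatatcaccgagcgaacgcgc
NDUFA8, chr9:122159754-122159803, minus strand: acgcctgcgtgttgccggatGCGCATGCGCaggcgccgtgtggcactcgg
SDHD, chr11:112086743-112086792, plus strand: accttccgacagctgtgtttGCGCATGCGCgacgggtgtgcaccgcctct
ATP5F1C, chr10:7788135-7788184, plus strand: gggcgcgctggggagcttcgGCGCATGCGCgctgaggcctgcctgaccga
The first base of the motif lay 159 bases before the start in NDUFB4, 4 in NDUFA8, 110 in SDHD and 22 in ATP5F1C. These 4 genes had a median log2 fold change of -0.14, against -0.21 for the 63 members without the motif. With and without the ETS letters the medians were -0.23 and -0.20, and with and without the YY1 letters -0.19 and -0.21. The 4 members with the NRF1 letters ran from -0.16 to -0.12, inside the range of those without, from -0.32 to 0.01.

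Other genes of the same system showed 0 calls in every list, beside 0.454% of all genes called in either direction. The assembly factors, which build the complexes, had median log2 fold changes of -0.13 for complex I (18 genes, 14 below 0), -0.27 for complex II (4 of 4 below 0), -0.09 for complex III (5 of 6), -0.18 for complex IV (24 of 24) and -0.05 for complex V (3 of 4). At an unadjusted edgeR p under 0.05 these lists held 5, 4, 1, 9 and 0 genes, each with a negative log2 fold change, where 8.1% of all genes were so. TMEM70, at -0.19 (edgeR, adjusted p = 0.232, SE 0.07), was counted in the complex I list only. NDUFAF2, a complex I assembly factor, was at 66.7, 87.4 and 58.1 CPM with SRPK2, against 89.3, 102 and 81.3 CPM with the empty vector, a log2 fold change of -0.36 (edgeR, adjusted p = 0.196, SE 0.12). SDHAF4, which helps to assemble SDHA and SDHB, was at 12.0, 12.9 and 9.86 CPM with SRPK2, against 14.8, 13.8 and 14.4 CPM with the empty vector, with groups that did not overlap and a log2 fold change of -0.31 (edgeR, adjusted p = 0.164, SE 0.09). PET117, a scarce complex IV assembly factor, was at 1.76, 2.46 and 1.83 CPM with SRPK2, against 2.48, 3.17 and 3.12 CPM with the empty vector, a log2 fold change of -0.53 (edgeR, adjusted p = 0.182, SE 0.17). The log2 fold change was -0.23 (edgeR, adjusted p = 0.225, SE 0.09) for NDUFAF4, -0.29 (edgeR, adjusted p = 0.252, SE 0.12) for SDHAF2, -0.34 (edgeR, adjusted p = 0.176, SE 0.10) for UQCC3, -0.17 (edgeR, adjusted p = 0.434, SE 0.11) for UQCC2 and -0.33 (edgeR, adjusted p = 0.236, SE 0.13) for COX14. For complex V, FMC1 had -0.09 (edgeR, adjusted p = 0.752, SE 0.13) and TMEM242 had -0.08 (edgeR, adjusted p = 0.656, SE 0.09).

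The list for the tricarboxylic acid cycle, which feeds the chain, also held the pyruvate dehydrogenase genes PDHA1, PDHB and DLAT, and PC. The list had a median log2 fold change of -0.03 (13 of 18 below 0). At an unadjusted edgeR p under 0.05 there were 2 genes, OGDH and PC, both higher. Of all genes, 17.2% passed it in either direction, a share not below that of the list. OGDH, a subunit of the oxoglutarate dehydrogenase complex, was at 137, 129 and 147 CPM with SRPK2, against 123, 117 and 123 CPM with the empty vector, higher in all 3 SRPK2 libraries, with a log2 fold change of 0.18 (edgeR, adjusted p = 0.178, SE 0.06). PC, which makes oxaloacetate from pyruvate, also had non-overlapping groups and a log2 fold change of 0.17 (edgeR, adjusted p = 0.196, SE 0.06). In this list the groups did not overlap for 2 genes that were higher and 2 that were lower, MDH2 and IDH3A. Of all genes tested, 11.5% were higher without overlap and 8.69% lower. The list of electron carriers also held enzymes that make ubiquinone, such as COQ2 and PDSS1, and dehydrogenases such as DHODH. Its median was -0.11 (14 of 16 tested genes below 0, of 17 in the list). Of these, 4 had an unadjusted edgeR p under 0.05, 3 of them lower, beside the same 17.2%. CYCS, cytochrome c, was at 390.2, 458 and 372 CPM with SRPK2, against 445, 497 and 446 CPM with the empty vector, a log2 fold change of -0.19 (edgeR, adjusted p = 0.247, SE 0.08), and ETFB, which passes electrons from fatty acid oxidation, had -0.26 (edgeR, adjusted p = 0.196, SE 0.09).

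Among 15 transcription regulators of respiratory genes the median was -0.05, with 11 below 0. ESRRA, a nuclear receptor that regulates many of the subunit genes, came closest to the threshold of all genes in these lists, at 43.5, 41.8 and 39.9 CPM with SRPK2, against 51.8, 52.2 and 48.4 CPM with the empty vector. Its groups did not overlap, and its log2 fold change was -0.28 (edgeR, adjusted p = 0.0528, SE 0.06). TFB2M, a mitochondrial transcription factor, had -0.17 (edgeR, adjusted p = 0.293, SE 0.08). Of the factors whose motifs were searched, NRF1 had -0.02 (edgeR, adjusted p = 0.888, SE 0.06), GABPA had 0.09 (edgeR, adjusted p = 0.480, SE 0.06) and YY1 had -0.05 (edgeR, adjusted p = 0.629, SE 0.05). At an unadjusted edgeR p under 0.05 there were 3 of the 15 regulators, 2 of them lower, a share near the 17.2% of all genes.

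The 13 subunits encoded by mitochondrial DNA did not share the order of libraries seen in the nuclear subunits. Their median deviation was 0.11, -0.02 and -0.10 in SRPK2 replicates 1 to 3, against 0.05, 0.02 and -0.07 in empty vector replicates 1 to 3. The median log2 fold change was 0.01, with 6 of 13 below 0. MT-ND4L, a membrane subunit of complex I, was at 848, 796 and 1001 CPM with SRPK2, against 692, 703 and 669 CPM with the empty vector, higher in all 3 SRPK2 libraries, with a log2 fold change of 0.36 (edgeR, adjusted p = 0.0717, SE 0.08). MT-ATP8 of complex V was at 3001, 2687 and 2918 CPM with SRPK2, against 2600.0, 2364 and 2380.0 CPM with the empty vector, likewise without overlap, with a log2 fold change of 0.23 (edgeR, adjusted p = 0.155, SE 0.06). MT-ND4 had 0.11 (edgeR, adjusted p = 0.390, SE 0.07) and MT-ATP6 had 0.01 (edgeR, adjusted p = 0.968, SE 0.07). In this list 3 genes were higher without overlap and 1 lower, where 11.5% and 8.69% of all genes were so. No member of this list passed the test, and 4 of 13 had an unadjusted edgeR p under 0.05, against 17.2% of all genes.

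Some subunit genes share transcribed bases with other genes, and how the authors' counter treated such reads is not stated, so their levels are uncertain. In GENCODE 29, 25 members shared exon bases with another gene on the same strand and 33 with one on the opposite strand. For 7 members the same-strand partner held more reads than the member. NDUFB8 had 3643 reads and its overlapping gene RP11-411B6.6 had 19339. NDUFA11 had 1977 reads and AC024592.12 had 15868. ATP5PO had 7068 reads and AP000304.12 had 16091. Those partners had log2 fold changes of -0.19 (SE 0.08), -0.22 (SE 0.10) and -0.15 (SE 0.09), with signs like those of the members. Without UQCRHL and the readthrough genes NDUFC2-KCTD14 and ATP5MF-PTCD1, the median log2 fold change of the other 80 members was -0.21, with 79 below 0.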

How the data were processed

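RNA sequencing libraries from 3 biological replicates with SRPK2-FLAG and 3 with an empty vector were grouped by title. Per the submitters' processing notes, bcl2fastq, FastQC and HISAT2 were used with GRCh38. Which program counted the reads, with which annotation and strand option, is not given in the sources used here. The authors deposited whole-number counts per gene (29710 genes) and FPKM values. For members, the gene length these imply was a median of 2.14 times the principal transcript in GENCODE 29. It was shorter than that transcript in some members, such as SDHC (2094 against 13566 bases).

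The tests used R 4.3.3 with edgeR 4.0.16 (TMM, filterByExpr, glmQLFit and glmQLFTest, two-sided, group as the only term, Benjamini-Hochberg over 16515 genes, threshold 0.05). All 83 members passed the filter, and had 394 to 137798 reads each. The biological coefficient of variation was 5.85%. Replicates differed by more than sampling noise (chi-square per degree of freedom 4.44 to 15.2). CPM values are TMM scaled and intervals are 95%. A prior count of 2 was used for log2 CPM only in the length corrections and the correlations between libraries. The median deviations and the figures used log2 CPM without it. Members, roles and lists were chosen with earlier results of these data known, so counts and medians of lists are descriptions without tests. Named genes were, per complex, the 3 with the highest FPKM, the 2 lowest and the highest log2 fold change. Isoform sets, all SDH genes and 2 genes per other list were also named. NDUFV1, NDUFS3, ATP5F1D, NRF1, GABPA, YY1, TMEM70, MDH2, IDH3A, MT-ND4, MT-ATP6 and overlapping genes were named after their values were seen. Protein identities were not computed. Alternatives were RLE factors, library size alone, no filter, DESeq2 1.42.0, limma 3.58.1 on log2(FPKM + 1) or log2(FPKM + 0.1), a replicate block, loess length corrections (span 0.3), and leaving out each library. The scripts were tested on simulated counts. Figures used Python 3.11.15 and matplotlib 3.10.9.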

Additional observations from a re-analysis of the deposited data

How the results depend on the processing

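The members' median log2 fold change kept its sign in every fit run, from -0.32 to -0.11, and the SRPK2 gene stayed called. The median over all genes moved to 0.04 when libraries were scaled by size alone, where the members' median was -0.17 with 80 below 0. The number of genes called was 75, but 153 with DESeq2, 18 on log2(FPKM + 1) with no filter, 997 with no filter on low counts and 123 with the principal transcript length correction; leaving out 1 library gave 27 to 1403, and with a length correction 38 (empty vector replicate 1), 45 (empty vector replicate 3), 47 (SRPK2 replicate 3) and 1346 (SRPK2 replicate 2). The number of members called was 0, but 50 with no filter; leaving out 1 library gave 0 to 59, and all calls came without SRPK2 replicate 2 (58 and 52 with the gene length and principal transcript corrections, chosen after seeing the data, with 1217 genes called in the second). The cause was not tested.

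Replicate numbers were not taken as pairs, since the correlations of same-numbered libraries were 0.084, 0.23 and 0.171, not all over 0.1, though each library correlated best with its own number. With the replicate block 76 members fell among 3899 genes called, against 13.0% of all genes called lower, and 74 among 3369 with the block and the gene length correction, against 14.3%.

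Signs turned in genes near 0. NDUFS1 was -0.059 with the length correction, -0.06 with the block added, -0.08 with the principal transcript correction and -0.125 with that and without SRPK2 replicate 2; leaving out 1 library gave -0.016 to 0.036, and with the length correction -0.03 (SRPK2 replicate 1), -0.094 (SRPK2 replicate 2), -0.054 (SRPK2 replicate 3), -0.057, -0.06 and -0.061 (empty vector replicates 1, 2 and 3). SDHA was 0.028 by library size alone and by log2(FPKM + 0.1), and 0.027 by log2(FPKM + 1) with and without the filter. UQCRC2 was 0.001 by library size alone, and leaving out 1 library gave -0.098 to 0.009. COX7B ran from -0.362 to 0.002 on leaving out 1 library, and without empty vector replicate 2 the length correction gave 0.013 for COX7B, 0.011 for COX7B2 and 0.00 for UQCRC2. The members' median SE was 0.10 on the log2 scale.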

Other observations

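Among the genes that overlap members on the same strand and hold more reads, AC005943.2, beside UQCR11, was at 37.3, 48.1 and 32.6 CPM with SRPK2, against 45.8, 55.6 and 41.1 CPM with the empty vector, a log2 fold change of -0.27 (edgeR, adjusted p = 0.297, SE 0.13). RP11-770J1.8, beside ATP5MG, was at 125, 161 and 117 CPM with SRPK2, against 153, 179 and 137 CPM with the empty vector, a log2 fold change of -0.22 (edgeR, adjusted p = 0.327, SE 0.11). Both had SRPK2 replicate 3 as the lowest library and empty vector replicate 2 as the highest, like the members they overlap. CTD-2550O8.5 had 4675 reads where NDUFA7, which it overlaps, had 29, and its log2 fold change was -0.27 (edgeR, adjusted p = 0.334, SE 0.14). The count table also listed 35 pseudogenes named after subunit genes, with 1 to 1729 reads each, the most in SDHAP3. These genes were chosen after their values were seen.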
